A study of Homo sapiens with 12 samples.

Results

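The ZBTB genes code for transcription factors that join a BTB domain near the N-terminus to C2H2 zinc fingers near the C-terminus. Members were all genes of the RNA-seq count files whose symbol is ZBTB followed by a number and at most 1 letter. This gave 41 of the 60662 genes listed, spread over 15 chromosomes with 9 on chromosome 1. The table of ribosome footprints, which covers 12224 genes, holds 39 of them and lacks ZBTB20 and ZBTB32. All libraries came from HEK293T, an established human embryonic kidney line, labelled WT and carrying no engineered allele in the labels. Treated cells received 20 µM STM2457, a small-molecule inhibitor of the RNA methyltransferase METTL3, with 0.2% DMSO as solvent for 6 h, and control cells received 0.2% DMSO for the same 6 h. Both arms were given a further 10% fetal bovine serum 1 h before lysis and cycloheximide, which stalls elongating ribosomes, at 100 µg/ml for 3 min. Poly(A) RNA was sequenced in 4 libraries per arm, and ribosome-protected fragments of 26 to 34 nt in 2 libraries per arm. Whether replicates are separate cultures is not given in the labels, so every p-value below reflects spread between libraries that may be technical. The comparison of STM2457 with DMSO asks how RNA, footprints and their ratio, the translation efficiency, differ for this family when m6A deposition is inhibited.

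The BTB domain lets these proteins pair with each other and binds corepressors such as NCOR1 and BCOR, which bring histone deacetylases. In some members it also docks on the ubiquitin ligase scaffold CUL3. The zinc fingers choose the DNA site, and several members are known for lineage choice in blood, for reading methylated CpG or for partnering MYC. m6A is a methyl mark on adenosines of mRNA that METTL3 writes as mRNA is made, and reader proteins such as YTHDF2 bind it and shorten the life of marked mRNA.

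Promoter sequence is shown for 4 members on which the results turn. ZBTB26 had the largest RNA fall of the family and ZBTB2 the largest RNA rise, and ZBTB25 and ZBTB1 are neighbours on chromosome 14 whose RNA moved in opposite directions. Each sequence is the 250 bases before an annotated start, 5′ to 3′ on the gene's own strand, from RefSeq on GRCh38.p14. Capitals mark the 48 bases that the ZBTB25 and ZBTB1 windows share, each read from its own strand.
ZBTB25, chr14:64503839-64504088, minus strand: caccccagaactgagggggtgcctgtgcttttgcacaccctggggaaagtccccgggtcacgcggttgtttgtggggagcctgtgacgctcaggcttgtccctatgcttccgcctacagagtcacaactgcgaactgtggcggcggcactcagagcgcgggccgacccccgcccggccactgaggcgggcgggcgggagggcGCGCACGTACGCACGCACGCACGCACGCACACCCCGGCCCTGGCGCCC
ZBTB1, chr14:64503637-64503886, plus strand: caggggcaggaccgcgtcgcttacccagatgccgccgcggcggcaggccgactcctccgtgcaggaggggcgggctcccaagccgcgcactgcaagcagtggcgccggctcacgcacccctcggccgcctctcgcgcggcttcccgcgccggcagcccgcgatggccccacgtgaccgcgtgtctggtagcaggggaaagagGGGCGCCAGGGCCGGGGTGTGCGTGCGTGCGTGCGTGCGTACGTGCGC
ZBTB26, chr9:122931513-122931762, minus strand: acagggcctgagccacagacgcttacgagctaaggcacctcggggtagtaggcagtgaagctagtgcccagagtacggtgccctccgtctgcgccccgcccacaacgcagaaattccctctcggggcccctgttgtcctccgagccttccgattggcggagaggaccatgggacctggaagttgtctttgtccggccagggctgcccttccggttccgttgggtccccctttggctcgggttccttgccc
ZBTB2, chr6:151391560-151391809, minus strand: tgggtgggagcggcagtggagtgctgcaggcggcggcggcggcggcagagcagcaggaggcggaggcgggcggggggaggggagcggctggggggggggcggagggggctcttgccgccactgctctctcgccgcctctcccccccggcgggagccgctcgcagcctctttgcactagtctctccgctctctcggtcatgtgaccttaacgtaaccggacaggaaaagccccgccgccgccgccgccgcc
These ZBTB25 and ZBTB1 starts lie 49 bases apart and point away from each other, so the capitals of one are the reverse complement of the other. GC content was 70.4% for ZBTB25, 76.0% for ZBTB1, 64.0% for ZBTB26 and 74.8% for ZBTB2, with 26, 37, 16 and 28 CpG dinucleotides. RefSeq promoter entries were matched for 35 of the 41 members, with 68 windows of 300 bases (250 before and 50 after a start). The median member window held 62.3% GC and 21 CpG, against 58.7% and 14 in all 35116 windows of the table. Those windows were not limited to genes detected in these cells, and a gene with several starts counts more than once. Whether expressed genes in general differ from all windows in the same way was not tested.

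Sites known for the family member Kaiso and for ETS factors were searched on both strands of these 300-base windows. TCCTGCNA, the site of Kaiso (ZBTB33) that does not need methylation, was in 5 of 68 member windows (7.35%, against 4.69% of all windows), belonging to ZBTB18, ZBTB20, ZBTB38, ZBTB47 and ZBTB7C. CCGGAAGT, a site of ETS factors, was also in 5 member windows (7.35%, against 4.14%), belonging to ZBTB11, ZBTB37, ZBTB38 and ZBTB45. Neither motif contains the other, and neither was in the 4 printed windows. A match describes the letters of a window only.

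Each RNA-seq library had between 43291730 and 51645739 counts, and recovered footprint reads numbered 3198063 (DMSO replicate 2) to 4711513 per library. HEK293T markers fixed for the check (PAX2, NEFL, NEFM, INA, VIM, KRT8 and KRT18) were all detected, with a summed RNA level of 1022 to 1060 CPM in DMSO and 1058 to 1094 CPM in STM2457 libraries. Of these, NEFL and NEFM rose (log2 changes 0.41 and 0.17) and KRT18 and INA fell (-0.41 and -0.11) in the edgeR test. Their part in the results was not tested. Of 7 fibroblast markers 4 passed the expression filter, with a summed level of 17.7 to 22.3 CPM in DMSO and 18.4 to 19.8 CPM in STM2457 libraries. Of 6 blood markers 2 passed it, with 2.65 to 3.28 CPM and 2.66 to 2.84 CPM, and HBB was at 0 in every library. METTL3 RNA was 75.7 ± 6.71 CPM in DMSO and 83.3 ± 6.71 CPM in STM2457 libraries (SD, n = 4, edgeR adjusted p = 0.104). RNA cannot check the inhibition of an enzyme's activity.

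Most ZBTB genes had more RNA after STM2457. Of the 39 members with enough counts for the test, 28 rose (71.8%) and 4 fell (10.3%), while among all 17807 genes tested 26.2% rose and 21.6% fell. The median log2 change was 0.34 over the 39 members and 0.0025 over all genes. With edgeR's quasi-likelihood test at a Benjamini-Hochberg adjusted p under 0.05, the fallers were ZBTB26, ZBTB17, ZBTB25 and ZBTB8B. A change of at least 1.5 fold was seen in 10 risers and 2 fallers (background 6.88% and 5.54%). The 4 STM2457 libraries lay wholly above the 4 DMSO libraries in 26 members and wholly below in 4 (background 24.9% and 19.8%). Levels are CPM, the counts of a gene relative to its library's total, scaled with edgeR's TMM factors. They are not divided by gene length and are not compared between genes. Within an arm, the coefficient of variation of a member's CPM ran from 0.332% to 26.7%, with a median of 5.16%. When libraries were scaled to the ERCC spike-ins instead, the median of all genes was -0.19 and that of the members was 0.15, with 19 members higher and 8 lower (background 12.1% and 47.1%). Bulk RNA cannot tell fewer expressing cells from less RNA per cell, so levels are averages over the culture.

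ZBTB2 (ENSG00000181472.5, chromosome 6), a repressor known from the p53 pathway, had 39.2, 42.3, 38.3 and 38.2 CPM with DMSO and 82.6, 88.6, 82.3 and 80.6 CPM with STM2457. Its arms lay far apart, and the mean rose 2.11-fold, from 39.5 ± 1.93 to 83.5 ± 3.50 CPM (SD, n = 4), a log2 change of 1.08 (SE 0.041, edgeR adjusted p = 5.07e-10). ZBTB24 (ENSG00000112365.4, chromosome 6), which is mutated in a form of ICF syndrome and activates CDCA7, had 48.7, 51.8, 48.2 and 47.1 CPM against 95.6, 103, 91.2 and 96.2 CPM. Its mean went from 49.0 ± 2.03 to 96.4 ± 4.68 CPM, a log2 change of 0.98 (SE 0.040, edgeR adjusted p = 9.48e-10). ZBTB34 (ENSG00000177125.5, chromosome 9) had 43.0, 41.4, 37.2 and 42.6 CPM with DMSO and 83.1, 78.1, 75.7 and 75.7 CPM with STM2457, a log2 change of 0.93 (SE 0.048, edgeR adjusted p = 6.42e-09). For ZBTB39 the values were 52.5, 54.3, 52.1 and 50.01 CPM and 97.4, 94.6, 91.1 and 93.2 CPM, a log2 change of 0.85 (SE 0.033, edgeR adjusted p = 5.41e-10). In each of these 4 genes the lowest treated library was at least 1.5 times the highest control library.

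The next risers were more moderate. ZBTB45 had 15.3, 15.6, 17.0 and 17.1 CPM with DMSO and 27.5, 26.4, 24.7 and 26.6 CPM with STM2457, a log2 change of 0.70 (SE 0.050, edgeR adjusted p = 1.64e-07). ZBTB21, a partner of ZBTB14, had 51.2, 50.4, 47.3 and 50.5 CPM and then 88.6, 77.6, 80.0 and 76.6 CPM, a log2 change of 0.69 (SE 0.046, edgeR adjusted p = 7.04e-08). Neither gene's arms overlapped. ZBTB38, which binds methylated CpG, went from 22.9, 24.7, 24.3 and 22.05 CPM to 37.7, 38.6, 36.0 and 35.6 CPM, a log2 change of 0.66 (SE 0.045, edgeR adjusted p = 9.81e-08). ZBTB43 went from 38.6, 42.2, 43.0 and 37.1 CPM to 60.0, 65.8, 55.4 and 64.7 CPM, a log2 change of 0.61 (SE 0.060, edgeR adjusted p = 2.62e-06). These arms did not overlap either. The remaining pair past 1.5 fold had few counts. ZBTB7C, a close relative of ZBTB7A, had 2.74, 2.32, 2.71 and 2.27 CPM with DMSO and 5.08, 4.02, 4.61 and 4.70 CPM with STM2457, a log2 change of 0.87 (SE 0.097, edgeR adjusted p = 8.81e-06). ZBTB20, a repressor of AFP in liver and a regulator of hippocampal neurons, had 0.362, 0.641, 0.402 and 0.447 CPM and 0.893, 0.715, 0.611 and 1.05 CPM, a log2 change of 0.82 (SE 0.22, edgeR adjusted p = 0.00856). Its highest DMSO library lay above its lowest STM2457 library.

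ZBTB26 (ENSG00000171448.9, chromosome 9) fell furthest. It had 21.5, 21.6, 20.4 and 19.7 CPM with DMSO and 8.36, 7.80, 7.64 and 7.59 CPM with STM2457, so the highest treated library lay far below the lowest control library. Its mean went from 20.8 ± 0.936 to 7.85 ± 0.355 CPM (SD, n = 4), 2.65-fold lower, a log2 change of -1.41 (SE 0.053, edgeR adjusted p = 4.87e-10). ZBTB17 (ENSG00000116809.11, chromosome 1) codes for MIZ-1, the zinc finger partner through which MYC represses CDKN2B and CDKN1A. It had 17.9, 18.2, 20.8 and 20.4 CPM with DMSO and 11.4, 12.6, 12.3 and 14.2 CPM with STM2457, a log2 change of -0.61 (SE 0.072, edgeR adjusted p = 1.56e-05). ZBTB25, named after its values were seen because it neighbours ZBTB1, had 15.9, 14.3, 14.9 and 15.2 CPM and 10.2, 9.33, 11.0 and 9.82 CPM, a log2 change of -0.58 (SE 0.059, edgeR adjusted p = 3.65e-06). It lay just under the 1.5-fold bound and ZBTB43 just above it on the rising side. The fourth faller, ZBTB8B, had 10.8, 9.20, 10.2 and 10.5 CPM and 7.63, 7.08, 8.91 and 7.53 CPM, a log2 change of -0.39 (SE 0.077, edgeR adjusted p = 0.00110). No STM2457 library of these 4 genes reached the lowest DMSO library.

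**Figure D1:**
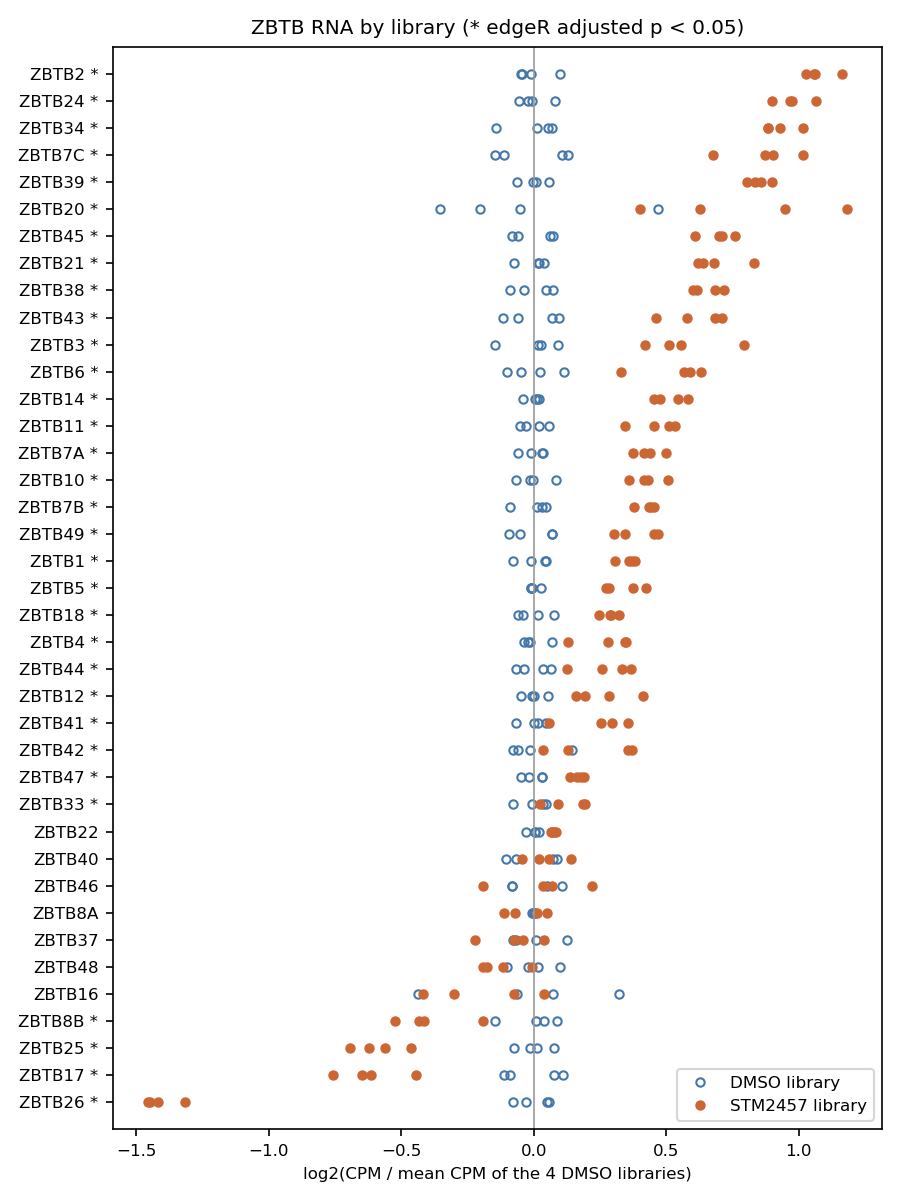
RNA of the 39 tested ZBTB genes in each library, as log2 of the CPM over the mean of the 4 DMSO libraries of that gene (x axis), ordered by the fitted change. Open circles are DMSO libraries, filled circles STM2457 libraries, and stars mark edgeR adjusted p under 0.05. Of the 39 genes 28 lie to the right past the test and 4 to the left, with ZBTB26 farthest left. With ERCC scaling, ZBTB33 and ZBTB47 of the 28 change sign.

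Another 18 members rose by less than 1.5 fold, with log2 changes from 0.13 (ZBTB33) to 0.58 (ZBTB3). Between these lay, in falling order, ZBTB6, ZBTB14, ZBTB11, ZBTB7A, ZBTB10, ZBTB7B, ZBTB49, ZBTB1, ZBTB5, ZBTB18, ZBTB4, ZBTB44, ZBTB12, ZBTB41, ZBTB42 and ZBTB47. ZBTB7A, which codes for LRF, a silencer of fetal globin, had 51.2, 54.6, 53.0 and 54.4 CPM with DMSO and 75.2, 71.2, 69.1 and 72.2 CPM with STM2457, a log2 change of 0.43 (SE 0.034, edgeR adjusted p = 3.77e-07). ZBTB3 just missed the bound, with a fold of 1.49. ZBTB33 codes for Kaiso, which binds methylated CpG and partners p120 catenin. It had 111, 112, 108 and 103 CPM with DMSO and 124, 124, 110.5 and 116 CPM with STM2457, a log2 change of 0.13 (SE 0.041, edgeR adjusted p = 0.0227). The ZBTB33 arms overlapped, and its call did not hold in 4 of the 8 fits that leave out 1 RNA library (DMSO replicate 3 or 4, STM2457 replicate 1 or 2). There the log2 change was 0.097 to 0.12, and with ERCC scaling it was -0.071. ZBTB42, with overlapping arms and a log2 change of 0.23 (SE 0.087, edgeR adjusted p = 0.0474), lost its call without DMSO replicate 1, 2 or 3 or STM2457 replicate 1 or 3 (log2 change 0.18 to 0.22).

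Of these smaller risers, 4 also rose in footprints and are given by library, beside ZBTB6 and ZBTB1, whose values follow with their neighbours. ZBTB3 had 6.77, 5.73, 6.48 and 6.41 CPM with DMSO and 9.03, 9.33, 8.48 and 11.0 CPM with STM2457, a log2 change of 0.58 (SE 0.084, edgeR adjusted p = 9.96e-05). ZBTB14, a GC-rich promoter binder known as ZF5, had 16.8, 16.2, 16.9 and 16.7 CPM and then 23.2, 25.0, 22.8 and 24.3 CPM, a log2 change of 0.52 (SE 0.043, edgeR adjusted p = 6.03e-07). ZBTB11 had 47.5, 46.2, 44.0 and 44.7 CPM with DMSO and 66.0, 65.0, 57.9 and 62.4 CPM with STM2457, a log2 change of 0.46 (SE 0.043, edgeR adjusted p = 1.70e-06). ZBTB10 had 107, 99.7, 96.1 and 100.5 CPM and then 143, 136, 129 and 134 CPM, a log2 change of 0.43 (SE 0.038, edgeR adjusted p = 1.02e-06). None of these 4 had overlapping arms. Among the others, ZBTB49, an activator of CDKN1A, went from 6.02 ± 0.342 to 7.92 ± 0.447 CPM and ZBTB5, a repressor of CDKN1A, from 43.8 ± 0.543 to 55.5 ± 2.83 CPM (SD, n = 4). ZBTB18 went from 110.5 ± 4.65 to 135 ± 2.84 CPM, ZBTB44 from 92.7 ± 4.02 to 112 ± 8.12 CPM and ZBTB12 from 16.5 ± 0.470 to 19.8 ± 1.57 CPM. The smallest of the risers with separate arms was ZBTB47, at 24.5 ± 0.677 and 27.5 ± 0.421 CPM. With ERCC scaling 9 of the 28 rises did not pass, those of ZBTB49, ZBTB18, ZBTB4, ZBTB44, ZBTB12, ZBTB41, ZBTB42, ZBTB47 and ZBTB33.

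In 7 members the RNA test was not passed. ZBTB48 codes for TZAP, a telomere-binding protein that trims long telomeres. It had 29.6, 28.0, 30.3 and 32.1 CPM with DMSO and 26.3, 26.5, 29.9 and 27.7 CPM with STM2457, a log2 change of -0.12 (SE 0.052, edgeR adjusted p = 0.0723). Its arms overlapped, and it was called lower without DMSO replicate 2 (edgeR adjusted p = 0.0345) or without STM2457 replicate 3 (edgeR adjusted p = 0.0142). The other fits that leave out 1 library did not call it. It was also called lower with DESeq2, without a filter on low counts, with a mean of at least 1 CPM and with ERCC scaling. The same held with either block of libraries described below and on the deposited table's RNA signal (limma adjusted p = 0.00431). ZBTB16 codes for PLZF, known from blood and germ cell lineages. It had 1.14, 1.04, 0.804 and 1.36 CPM and 1.12, 0.883, 1.03 and 0.815 CPM, a log2 change of -0.18 (SE 0.17, edgeR adjusted p = 0.416). The other 5 had log2 changes of 0.073 (ZBTB22), 0.044 (ZBTB40), 0.038 (ZBTB46), -0.028 (ZBTB8A) and -0.072 (ZBTB37). ZBTB32, a blood lineage gene, had 1 count in STM2457 replicate 1 and 1 in replicate 4 and 0 in the other libraries, and was not tested.

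ZBTB9 is listed at 0 in all 8 RNA count files. The deposited table gives it an RNA signal of 274, 274, 266 and 289 with DMSO and of 465, 451, 429 and 457 with STM2457. Limma on log2 of that signal plus 1, a test chosen after the values were seen, gave a log2 change of 0.71 (SE 0.045, adjusted p = 3.36e-08). So the RNA of ZBTB9 has a value in 1 of the 2 deposited forms only, and it is left out of the RNA counts above. On the same table signal, 25 of 39 members were higher and 5 lower (background 25.7% and 32.6%). These 39 include ZBTB9, called higher, and lack ZBTB20. ZBTB8B fell by 0.93 on the log2 scale there, against 0.39 in the counts.

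Footprints, which count ribosomes on the mRNA, rose for 12 ZBTB genes and fell for ZBTB26. Of the 39 members in the table, 35 had a mean of at least 10 reads per footprint library and were tested. ZBTB7C, ZBTB8B, ZBTB16 and ZBTB42 had fewer. The 12 that rose make 34.3% of the 35 and the 1 that fell 2.86%, against 9.59% and 6.13% of all 10906 genes tested (limma, adjusted p under 0.05). The median log2 change was 0.22 over the members and -0.025 over all genes. At least 1.5 fold was reached by 11 of the risers and the 1 faller (background 6.15% and 2.35%). Both STM2457 libraries lay above both DMSO libraries in 18 members and below both in 8 (background 25.7% and 28.4%). Signal is the authors' normalized footprint value, in which 1 read is worth 3.22 to 4.82 units depending on the library. Fold changes are on log2(signal + 1), which understates changes at low signal.

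The footprint signal of ZBTB24 was 663 and 718 with DMSO and 1519 and 1562 with STM2457, a log2 change of 1.16 (SE 0.13, limma adjusted p = 8.98e-10). For ZBTB34 it was 267 and 255 with DMSO and 634 and 527 with STM2457, a log2 change of 1.14 (SE 0.19, limma adjusted p = 9.89e-06). For ZBTB45 it was 335 and 222 with DMSO and 547 and 605 with STM2457, a log2 change of 1.08 (SE 0.20, limma adjusted p = 4.76e-05). On the log2(signal + 1) scale these are rises of 2.23, 2.21 and 2.11 fold. ZBTB9 had 357 and 448 with DMSO, on 111 and 93 reads, and 653 and 968 with STM2457, on 172 and 248 reads, a log2 change of 0.99 (SE 0.18, limma adjusted p = 2.44e-05). ZBTB11, needed for neutrophil development in fish and linked to mitochondrial function, went from 1075 and 843 to 1565 and 1597, a log2 change of 0.73 (SE 0.13, limma adjusted p = 2.16e-05). ZBTB10, which binds variant telomere repeats, went from 1967 and 1764 to 2769 and 2788, a log2 change of 0.58 (SE 0.11, limma adjusted p = 4.47e-05). In each of these genes both treated libraries lay above both controls.

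The other 6 risers passed the test by less. ZBTB3 had signals of 229 and 357 with DMSO and 467 and 508 with STM2457, a log2 change of 0.77 (SE 0.21, limma adjusted p = 0.00548). ZBTB39 had 225 and 405 with DMSO and 524 and 465 with STM2457, a log2 change of 0.71 (SE 0.21, limma adjusted p = 0.0136). ZBTB2 had 299 and 376 with DMSO and 467 and 562 with STM2457, a log2 change of 0.61 (SE 0.19, limma adjusted p = 0.0205). The DMSO libraries of these genes differed from each other by more than those of ZBTB24. ZBTB1, required for lymphocyte development, had 296 and 275 with DMSO and 425 and 453 with STM2457, a log2 change of 0.62 (SE 0.20, limma adjusted p = 0.0256). ZBTB6 had 379.8 and 284 with DMSO and 592 and 414 with STM2457, a log2 change of 0.59 (SE 0.20, limma adjusted p = 0.0335). ZBTB14 had 138 and 149 with DMSO and 209 and 297 with STM2457, a log2 change of 0.79 (SE 0.27, limma adjusted p = 0.0353). With 2 libraries per arm these calls are fragile. Leaving out 1 library leaves 1 in its arm, and the share of all genes called in such fits is not given. The counts that follow describe single members and are not a result about the family. Without DMSO replicate 1, 7 members rose, and ZBTB1, ZBTB14, ZBTB2, ZBTB3 and ZBTB39 did not pass. Without DMSO replicate 2, 9 rose, and ZBTB1, ZBTB14 and ZBTB6 did not pass. Without STM2457 replicate 1, 9 rose (ZBTB1, ZBTB39 and ZBTB6 did not), and without STM2457 replicate 2, 10 rose (ZBTB1, ZBTB14 and ZBTB2 did not, and ZBTB43 did).

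ZBTB26 footprints were 51.5 and 116 with DMSO, on 16 and 24 reads, and 7.60 and 11.7 with STM2457, on 2 and 3 reads. The arms were apart, with a log2 change of -2.90 (SE 0.67, limma adjusted p = 0.00112). Without DMSO replicate 2 the log2 change was -2.33 and the adjusted p 0.165, and 0 members then fell (2 at an unadjusted p under 0.05). ZBTB17 had 203 and 212 with DMSO and 141 and 144 with STM2457, a log2 change of -0.54 (SE 0.28, limma adjusted p = 0.201). Its libraries were also apart, but the test was not passed. ZBTB25, whose RNA fell, had 122 and 67.5 with DMSO, on 38 and 14 reads, and 91.2 and 113 with STM2457, on 24 and 29 reads, a log2 change of 0.16 (SE 0.37, limma adjusted p = 0.840). Its arms overlapped, and without DMSO replicate 2 the log2 change was -0.27. ZBTB37 had 70.8 and 57.8 with DMSO and 53.2 and 7.81 with STM2457, a log2 change of -1.57 (SE 0.63, limma adjusted p = 0.0825). The treated values differed from each other by more than the higher one did from the controls, and without STM2457 replicate 1 ZBTB37 and ZBTB8A passed the test as lower beside ZBTB26.

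Several members with clear RNA rises did not pass in footprints. ZBTB21 had 663 and 675 with DMSO and 862 and 875 with STM2457, a log2 change of 0.38 (SE 0.15, limma adjusted p = 0.0744). ZBTB43 had 251 and 275 with DMSO and 467 and 285 with STM2457, a log2 change of 0.47 (SE 0.22, limma adjusted p = 0.156). ZBTB7A had 344 and 371 with DMSO and 410.2 and 547 with STM2457, a log2 change of 0.40 (SE 0.19, limma adjusted p = 0.160). The 3 changes point the way of the RNA but did not pass. With 2 libraries per arm, limma takes part of each gene's spread from other genes of like signal. The ZBTB21 libraries within an arm lay closer together than its SE implies. ZBTB49 had a larger estimate, 0.86, with a larger error (SE 0.43, limma adjusted p = 0.184). Against the RNA direction lay ZBTB38, ZBTB33, ZBTB7B, ZBTB12 and ZBTB47, with footprint log2 changes of -0.28, -0.32, -0.21, -0.21 and -0.078, none past the test. Members tested in both whose RNA did not pass had footprint log2 changes from -1.57 (ZBTB37) to 0.19 (ZBTB40), also none past the test.

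**Figure D2:**
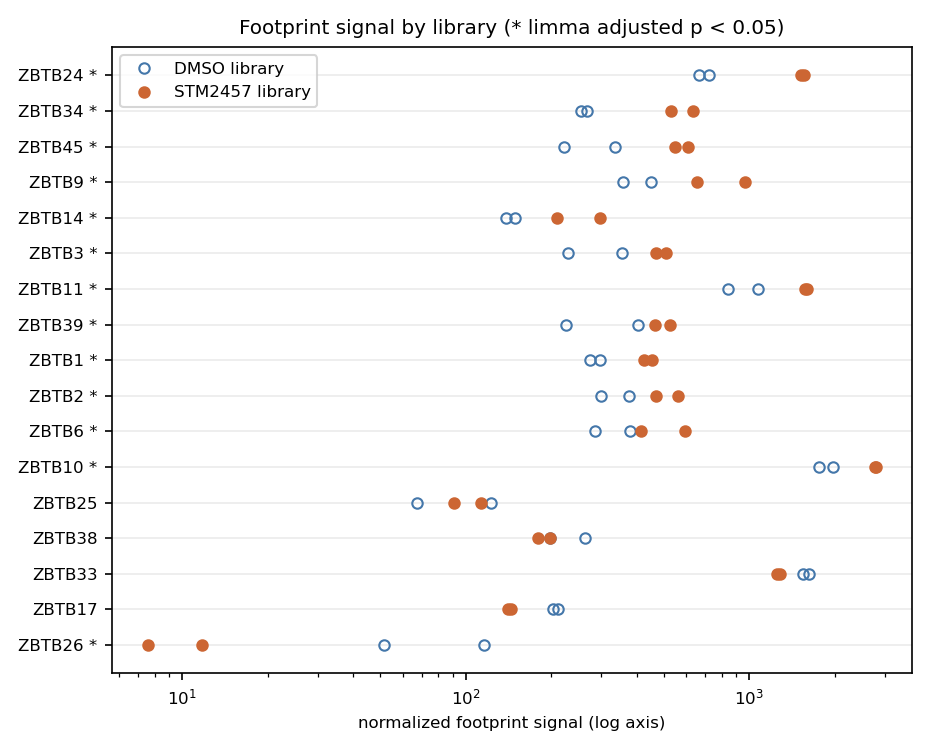
Normalized footprint signal (x axis, log scale) of 17 ZBTB genes in each of the 2 DMSO (open) and 2 STM2457 (filled) Ribo-seq libraries, ordered by the fitted change. Stars mark limma adjusted p under 0.05. The 12 starred risers have both treated libraries to the right of both controls, and ZBTB26 has both to the left.

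Among the 34 members tested in RNA and footprints, 11 rose in both (32.4%) and ZBTB26 fell in both (2.94%), against 9.27% and 4.30% of the 10864 genes tested in both. Of the 25 that rose in RNA and were tested in footprints, 20 had a footprint log2 change above 0 and 5 below, and 14 did not pass the footprint test. That share of 80.0% is near the 77.9% of all 3861 genes that rose in RNA, and is not a result about the family. Across the 34 members the log2 changes had a Pearson correlation of 0.80 and a Spearman correlation of 0.77, against 0.70 and 0.64 over all genes tested in both. Without ZBTB26 the Pearson value was 0.66 over 33 members. These are descriptions across genes, which share the libraries' depth and are not independent replicates. Read depth is given beside the calls. Mean reads per footprint library ran from 11.2 to 605 over these 34 members, with a median of 86.2. Of the 12 members with at least 100 mean reads and an RNA test, 8 rose in footprints, against 3 of the 22 with fewer. That mean includes the STM2457 libraries, so a rise itself lifts a gene towards the bound, and the difference is partly built in. ZBTB34, for example, had 83 and 53 reads with DMSO and 167 and 135 with STM2457. The same counts were not made over all genes. The part of depth in this difference was not tested.

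**Figure D3:**
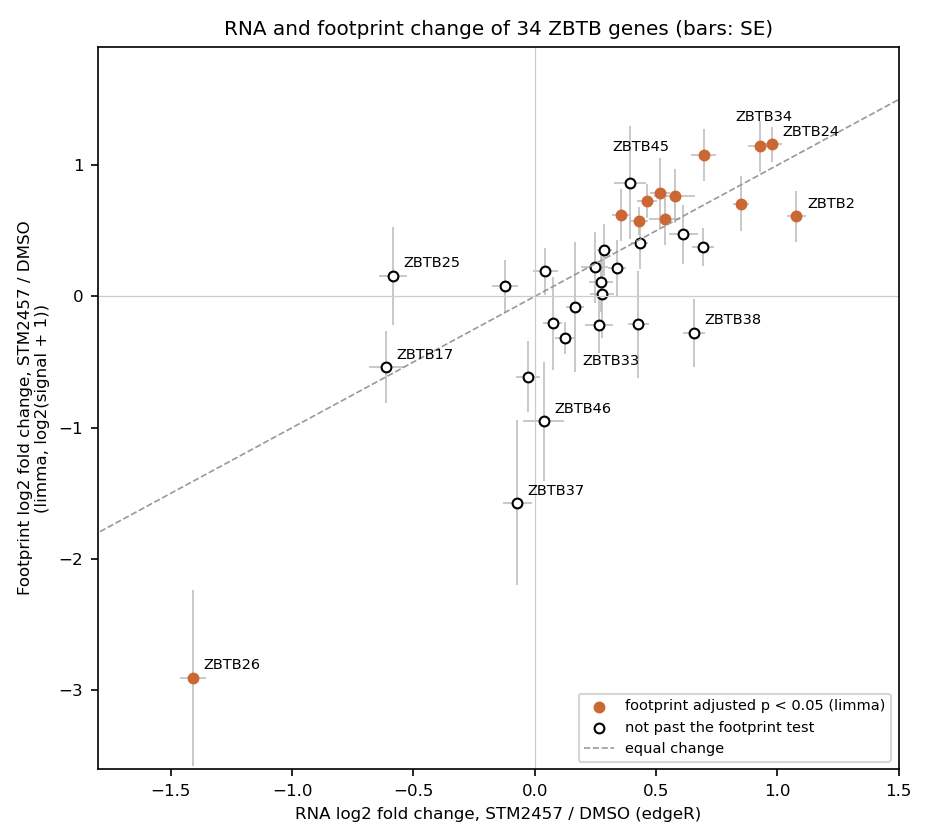
RNA log2 fold change by edgeR (x axis, 4 against 4 libraries) and footprint log2 fold change by limma (y axis, 2 against 2 libraries) of the 34 ZBTB genes tested in both, with bars of 1 SE. Filled points passed the footprint test, and the dashed line is equal change. ZBTB26 is lowest on both axes, at -1.41 and -2.90, and ZBTB38 lies right of 0 on the x axis and below 0 on the y axis.

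No ZBTB gene passed the test for a change in translation efficiency. This is the interaction of assay and treatment in limma, with a weight for each assay. It called 0 of 35 members higher and 0 lower, and 0.229% and 0.807% of all genes. At an unadjusted p under 0.05 there were 1 member higher and 7 lower, against 3.81% and 5.58% of all genes. The median log2 change was -0.0023 over the members and 0.0060 over all genes. On simulated data with these numbers of libraries the test recovered 24% of 1.5-fold and 52% of 2-fold changes of efficiency, so smaller changes were seldom detected there. That simulation changed 50 genes at each fold, in footprints only, and left RNA unchanged. In the data 47.8% of all genes tested were called in RNA and 15.7% in footprints, so its rates may not carry over. A missing call does not show an unchanged efficiency. A fit with 1 spread for both assays called 1 member higher (ZBTB1) and 3 lower (ZBTB26, ZBTB33 and ZBTB38; background 3.11% and 4.46%). In the simulation 64.8% of that fit's 392 calls were false, against 8.33% of 96 with the weights. The false share in the data is not known. An edgeR interaction on RNA counts and recovered reads called ZBTB33 and ZBTB38 lower and 0 higher among 34 members (background 2.76% and 1.14%).

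ZBTB38 had the smallest adjusted p. Each footprint library was divided by the mean RNA signal of the 4 libraries of its arm. This ratio was 0.817 and 0.612 in the DMSO replicates and 0.393 and 0.357 in the STM2457 replicates, a log2 change of -0.92 (SE 0.23, limma adjusted p = 0.0739). Footprints were 264 and 198 with DMSO and 197 and 179.6 with STM2457, a log2 change of -0.28 (SE 0.26, limma adjusted p = 0.536), while its RNA rose. For ZBTB26 the ratios were 0.263 and 0.590 with DMSO and 0.11 and 0.170 with STM2457, a log2 change of -1.41 (SE 0.38, limma adjusted p = 0.102). Without the footprint library DMSO replicate 1 that change was -1.99 and passed the test (adjusted p = 0.0444), and without DMSO replicate 2 it was -0.84 (adjusted p = 0.795). For ZBTB33 the ratios were 1.37 and 1.44 with DMSO and 1.1 and 1.13 with STM2457, a log2 change of -0.33 (SE 0.16, limma adjusted p = 0.547). The ZBTB33 footprints behind them were 1542 and 1624 with DMSO and 1253 and 1285 with STM2457, a log2 change of -0.32 (SE 0.12, limma adjusted p = 0.0620). ZBTB37, with a log2 change of -1.69 (SE 0.60, limma adjusted p = 0.293), passed the test only without STM2457 replicate 1 (log2 change -3.00). The opposite end was ZBTB25, with a log2 change of 0.70 (SE 0.37, limma adjusted p = 0.60) on 14 to 38 reads per library.

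In the authors' deposited table, the translation efficiency of the members in the DMSO arm had a median of 0.826, against 1.01 for all 12224 genes, and 15 of 39 members lay above that table median. It ran from 0.200 (ZBTB47) to 2.96 (ZBTB3, at the percentile 98.1 of the table). ZBTB10, at 1.85 in the authors' deposited table, was high and ZBTB18, a repressor of neuronal development genes, at 0.26 was low. These ratios are the authors' own, with no error given.

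Of the ZBTB genes that lie next to each other, 3 of 4 pairs changed unequally in RNA. The same comparison was not made for other neighbouring genes, and 47.8% of all genes tested changed in RNA. The count describes these pairs and is not a result about the family. Members with less than 100 kb between them and 0 other RefSeq genes between formed 4 pairs, and the log2 ratio of their CPM was compared over libraries. The ratio contains both gene lengths, so its change is read and not its level. On chromosome 9, ZBTB6 rose while ZBTB26 fell. ZBTB6 had 26.3, 29.5, 27.7 and 25.4 CPM with DMSO and 40.9, 42.1, 34.2 and 40.4 CPM with STM2457, a log2 change of 0.54 (SE 0.065, edgeR adjusted p = 1.89e-05). The log2 ratio of ZBTB26 to ZBTB6 went from -0.39 ± 0.07 to -2.32 ± 0.12 (SD, n = 4), a change of -1.94 (exact two-sided permutation p = 0.0286). On chromosome 14, ZBTB1 rose while ZBTB25 fell. ZBTB1 had 28.2, 28.1, 25.9 and 27.1 CPM and 35.6, 35.1, 35.3 and 33.9 CPM, a log2 change of 0.36 (SE 0.038, edgeR adjusted p = 6.44e-06). The log2 ratio of ZBTB1 to ZBTB25 went from 0.86 ± 0.08 to 1.80 ± 0.09 (SD, n = 4), a change of 0.94 (exact two-sided permutation p = 0.0286). The annotated spans of these genes overlap, and the libraries are strand-specific but the strand setting of the counting is not given in the sources used here. Which of the 2 genes reads from the overlap were counted for cannot be told apart.

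The other 2 pairs differed by less. The second pair on chromosome 9, ZBTB43 and ZBTB34, rose together. Their log2 ratio of ZBTB34 to ZBTB43 went from 0.03 ± 0.19 to 0.35 ± 0.13 (SD, n = 4), a change of 0.32 (exact two-sided permutation p = 0.0286). For the paralogs ZBTB8B and ZBTB8A on chromosome 1, the log2 ratio of ZBTB8A to ZBTB8B went from 0.44 ± 0.10 to 0.80 ± 0.20 (SD, n = 4), a change of 0.36 (exact two-sided permutation p = 0.0571). The paralogs may share reads. Adjusted over the 4 pairs, the p-values were 0.0381 for the first 3 and 0.0571 for the paralogs, and 0.0286 is the smallest p that 4 against 4 libraries allow. In the ZBTB6 and ZBTB1 pairs, the arms of the 2 genes lay apart in opposite directions. That alone fixes their permutation p at this smallest value, so it adds nothing to the single-gene changes.

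**Figure D4:**
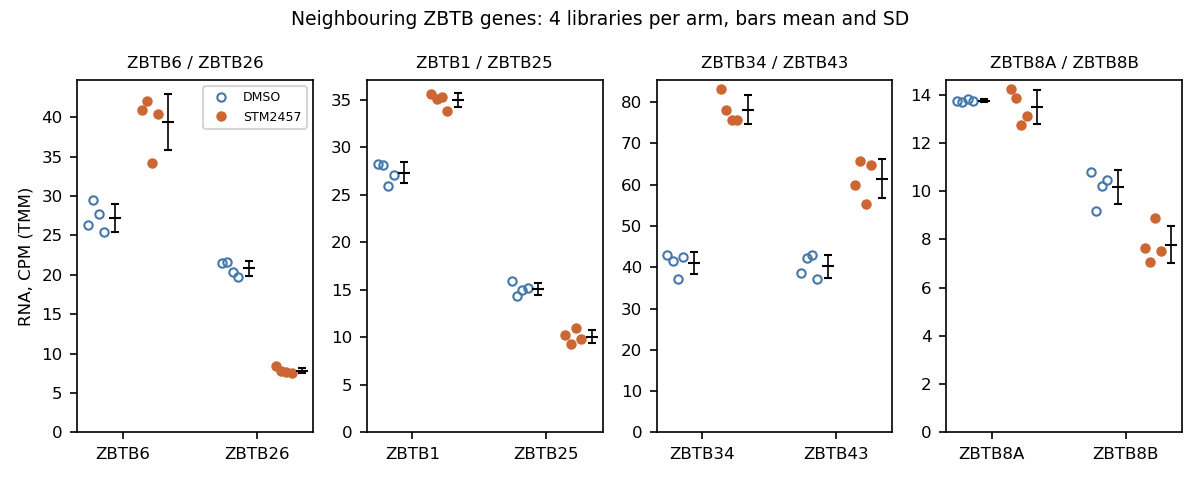
RNA in CPM (y axis, from 0) of 4 pairs of neighbouring ZBTB genes in each DMSO (open) and STM2457 (filled) library, with bars for the mean and SD of 4 libraries. ZBTB26 falls from 20.8 to 7.85 CPM beside a rise of ZBTB6, ZBTB25 falls beside a rise of ZBTB1, both genes rise in the third panel, and ZBTB8A overlaps between arms in the fourth.

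Counts by known role stand beside 26.2% higher and 21.6% lower of all genes in RNA and 9.59% and 6.13% in footprints. The roles are parts of the family, which had 71.8% higher and 10.3% lower in RNA and 34.3% and 2.86% in footprints. The groups are small, and their counts describe members and are not results about a role. The 3 methyl-CpG readers, ZBTB33, ZBTB4 and ZBTB38, all rose in RNA, with a median log2 change of 0.28. With ERCC scaling the ZBTB33 change was -0.071 and that of ZBTB4 0.083, neither past the test. Their footprints had a median log2 change of -0.28, and 0 of 3 passed the test. ZBTB4 had an RNA log2 change of 0.28 (SE 0.050, edgeR adjusted p = 5.03e-04) and a footprint log2 change of 0.021 (SE 0.34, limma adjusted p = 0.979). Of 9 blood and immune lineage genes 8 were tested in RNA, of which 5 rose (ZBTB24, ZBTB20, ZBTB7A, ZBTB7B and ZBTB1), 1 fell (ZBTB17) and ZBTB46 and ZBTB16 did not pass. In footprints 2 of the 6 tested rose, ZBTB24 and ZBTB1. ZBTB7B, which codes for ThPOK, the factor that commits T cells to the CD4 lineage, had an RNA log2 change of 0.43 (SE 0.044, edgeR adjusted p = 4.50e-06). ZBTB46, a marker of classical dendritic cells, had a footprint log2 change of -0.95 (SE 0.45, limma adjusted p = 0.159). The 3 LRF-like genes ZBTB7A, ZBTB7B and ZBTB7C all rose in RNA, and 0 of the 2 tested rose in footprints. Of the telomere binders ZBTB10 rose in RNA and footprints and ZBTB48 in neither. ZBTB48 footprints were 332 and 347 with DMSO and 342 and 375 with STM2457. Of 3 neural regulators ZBTB18 and ZBTB20 rose in RNA and ZBTB16 did not pass.

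The BTB zinc finger genes that carry other names also had more RNA in most cases. Of 8 such genes 6 rose in RNA and 0 fell, against 26.2% and 21.6% of all genes tested, with a median log2 change of 0.36 (0.0025 over all genes). HIC1, a tumour suppressor silenced by methylation in many cancers, rose from 3.28 ± 0.368 to 7.09 ± 0.550 CPM (SD, n = 4), a log2 change of 1.11 (SE 0.089, edgeR adjusted p = 4.39e-07). Its relative HIC2 rose from 106 ± 3.32 to 226 ± 9.50 CPM, a log2 change of 1.09 (SE 0.034, edgeR adjusted p = 1.14e-10). GZF1 (0.46), ZNF131 (0.37), PATZ1 (0.36) and MYNN (0.28) also rose on the log2 scale. BCL6, the master repressor of germinal centre B cells, was at 4.99 ± 0.252 and 4.98 ± 0.491 CPM (edgeR adjusted p = 0.994), and BCL6B did not pass either. In footprints 3 of 7 rose, against 9.59% of all genes tested (HIC2 by 0.70, ZNF131 by 0.55 and GZF1 by 0.53 on the log2 scale).

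Of 12 corepressor and ligase genes that partner the BTB domain, 4 rose and 3 fell in RNA, with a median log2 change of -0.0047. This is near the share of all genes tested, 26.2% higher and 21.6% lower, and is not a result about the list. BCOR (0.53), BCORL1 (0.46), SIN3A (0.46) and CTBP2 (0.14) rose, and NCOR1 (-0.37), HDAC3 (-0.078) and CTBP1 (-0.074) fell on the log2 scale. NCOR1 RNA went from 219.6 ± 6.34 to 169 ± 8.90 CPM (SD, n = 4, edgeR adjusted p = 2.61e-06). NCOR1 footprints also fell, by 0.66 on the log2 scale (SE 0.12, limma adjusted p = 2.31e-05). BCOR, BCORL1 and SIN3A rose in footprints too, and CUL3, the ligase scaffold, did not pass in either (log2 changes -0.017 and -0.043). Of 6 textbook targets of ZBTB proteins 3 passed the expression filter. CDKN2B, the cell cycle inhibitor that MIZ-1 binds, rose from 19.7 ± 1.36 to 35.1 ± 1.64 CPM (SD, n = 4), a log2 change of 0.83 (SE 0.053, edgeR adjusted p = 4.57e-08), and its footprints rose by 0.90. CDKN1A and CDCA7 did not pass in RNA (log2 changes 0.10 and 0.058). HBG1 was at 0 and HBG2 and AFP had at most 3 counts in any library. Of the m6A genes METTL14, WTAP and YTHDF2 rose in RNA by 0.55, 0.80 and 1.60 on the log2 scale.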

How the data were processed

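The RNA-seq files are raw counts per gene, as deposited by the authors, with counts of 92 ERCC spike-ins. The deposited table holds the authors' normalized signal per library, their translation efficiency as a ratio of footprint to RNA signal, and its change on a log2 scale. Per the submitters' processing notes, STAR 2.7.3a, UMI-tools 1.1.2, Subread 2.0.3 with featureCounts, SAMtools 1.10, bedtools 2.29.2, FastQC 0.11.9 and DESeq2 had a part, on GRCh38.p12. The notes give neither their roles nor their order. The counting mode and strand setting are not given in the sources used here. Per the labels, libraries were grouped by assay and treatment, and the table's WT columns were taken as the DMSO arm.

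RNA was tested on the counts with edgeR 4.0.16 (quasi-likelihood, TMM, filterByExpr) in R 4.3.3, with spike-ins left out. Its SE is the absolute log2 change divided by the square root of F. Footprints were tested with limma 3.58.1 (trend) on log2(signal + 1), for genes with a mean of at least 10 reads. Reads were recovered from the footprint signal, where 100% of values lay within 0.1 of a whole read. For efficiency, limma tested the assay-by-treatment interaction on the same table with a weight per assay. All p-values were adjusted by Benjamini-Hochberg over all genes, at 0.05. Alternatives included DESeq2 1.42.0. Of 60662 genes, 60261 matched a symbol.

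On simulated data, edgeR recovered 70.8% of 1.5-fold RNA changes among 17807 genes (5.77% of 156 calls false), and limma 44% of 1.5-fold footprint changes among 10906 genes (5.26% of 114 false). At each simulated fold 48 to 50 genes were changed. Far more genes were called in the data, so these rates may not carry over. Replicate libraries differed by more than sampling noise, so none was counted as a duplicate. Among the 78 sets of 4 RNA libraries of a tested member, 0 held an outlier by Dixon's test at 0.829. Named members are those past the test and 1.5 fold in RNA, those past the footprint or efficiency test, and ZBTB7A, ZBTB16, ZBTB17, ZBTB24, ZBTB33 and ZBTB48. Members and lists were chosen with earlier results of these data known. Motifs were searched in RefSeq promoter windows. One gene of the corepressor list is not reported here, for a reason that does not concern its values, and was left out of that list's counts.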

Additional observations from a re-analysis of the deposited data

How the results depend on the processing

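Of the single-gene changes re-fitted in RNA, 542 of 583 kept their direction and their side of the threshold. In footprints this held for 235 of 261 and in efficiency for 71 of 79, and both figures cover only part of the tested members. For efficiency these were ZBTB1, ZBTB9, ZBTB24, ZBTB25, ZBTB26, ZBTB33, ZBTB37 and ZBTB38. None of them passed the main efficiency test, so keeping a side there means staying uncalled. The 28 higher and 4 lower RNA calls became 26 and 5 with DESeq2, 28 and 5 without a filter on low counts, 26 and 5 with a mean of at least 1 CPM, and 19 and 8 with ERCC scaling. ZBTB48 was among the lower calls in each of these alternatives. The calls were 25 and 5 with limma on the table's RNA signal, an alternative added after seeing the data. Its members differ, since the table holds ZBTB9, called higher there, and lacks ZBTB20, called higher in the counts. With ERCC scaling ZBTB22 (-0.12), ZBTB33 (-0.071), ZBTB40 (-0.15), ZBTB46 (-0.16) and ZBTB47 (-0.029) turned to lower on the log2 scale, ZBTB40 past the test (adjusted p = 0.0379). On the table's RNA signal ZBTB37 (0.12) and ZBTB46 (-0.011) changed sign, as did ZBTB46 without STM2457 replicate 3 (-0.025, and up to 0.11 with another library left out). Leaving out 1 library gave 26 to 28 higher and 4 to 5 lower in RNA, 7 to 10 higher and 0 to 3 lower in footprints, and 0 higher and 0 to 1 lower in efficiency. The sign of the footprint change then varied for ZBTB25 (log2 -0.27 to 0.58), ZBTB12 (-0.53 to 0.097), ZBTB4 (-0.095 to 0.14), ZBTB40 (-0.053 to 0.43) and ZBTB47 (-0.57 to 0.41), none past the test. With a mean of at least 50 reads, 0 members fell in footprints, because ZBTB26 was then not tested, and 12 rose. The spread shared between assays gave 1 higher and 3 lower efficiency calls, and the edgeR interaction 0 and 2. Shares over all genes are given above only for ERCC scaling, the table's RNA signal, the shared spread and the edgeR interaction. The other counts are not read as results about the family. Where not stated, the cause was not tested. Same-numbered libraries deviated together with correlations of 0.0763 to 0.227 in RNA and 0.0064 in footprints. Not every pair exceeded 0.1, and DMSO replicate 4 correlated best with STM2457 replicate 3, so the numbers were not taken as pairs. RNA libraries 1 and 2 of one arm correlated with 1 and 2 of the other, and 3 and 4 with 3 and 4 (0.0763 to 0.275), while all 8 correlations between these 2 sets were negative (-0.256 to -0.0850). Deviations from an arm mean sum to 0, so the negative values largely follow from the positive ones and are not a separate observation. The labels name no such batch. A block for these 2 sets, added after seeing the data, gave 28 higher and 5 lower in RNA (ZBTB48 added). A fit with the replicate block gave 28 higher and 5 lower in RNA (ZBTB48 added), 12 and 1 in footprints, and 0 and 0 in efficiency. The median member tested in both assays had 86.2 mean footprint reads.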
